A study of Rattus norvegicus with 24 samples.

Results

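The miR-181 family in these data was every row named rno-miR-181a, rno-miR-181b, rno-miR-181c or rno-miR-181d in the count tables of 2 brain regions, which gave 10 of the 728 miRNA rows. Of these, 4 were 5p rows, the guide strands of the family, and 6 were 3p rows from the opposite arm of the hairpins. Perilesional cortex and ipsilateral thalamus were sequenced in 12 adult male Sprague-Dawley rats, with 1 library per rat and region. In the TBI group (6 rats) a lateral fluid-percussion injury, a pulse of fluid against the exposed dura, had been given 3 months earlier, and the sham group (6 rats) had anesthesia and the craniectomy without the pulse. The injured rats had been selected by the study for chronic neuroinflammation on imaging, so they stand for such animals and not for all injured rats, and the sham rats carry the effect of the opened skull.

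MicroRNAs are cut from hairpin precursors, and the strand that is loaded into an Argonaute protein guides it to target RNAs through its seed, the bases near its 5′ end. miR-181 guides are abundant in brain and in lymphocytes and are known for tuning T cell receptor signaling, inflammatory responses of glia and mitochondrial and cell death pathways in neurons and astrocytes after ischemia. The family is encoded by paired hairpins in separate clusters, each with a miR-181a or miR-181c gene next to a miR-181b or miR-181d gene.

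RefSeq (assembly GRCr8) held mature sequences for 9 of the 10 rows, and rno-miR-181b-2-3p was without an entry. The guide sequence of rno-miR-181a-5p is produced from Mir181a-1 at chr13:52037081-52037103 and from Mir181a2 at chr3:43025601-43025623, both on the plus strand, so its reads cannot be assigned to either gene. Mir181b1, with rno-miR-181b-5p at chr13:52037263-52037285, neighbors Mir181a-1 inside the long non-coding RNA gene LOC108352541, and the nearest protein-coding gene is Ptprc. Mir181a2 and Mir181b2 overlap Nr6a1, a nuclear receptor gene, and the long non-coding RNA gene LOC120101539. Mir181c and Mir181d lie on chromosome 19 next to Nanos3 and Brme1, with rno-miR-181c-5p at chr19:40888314-40888335 and rno-miR-181d-5p at chr19:40888484-40888506, plus strand. The 4 guides are shown here 5′ to 3′ because they are nearly the same molecule, with the seed (bases 2 to 8) in capitals.
rno-miR-181a-5p: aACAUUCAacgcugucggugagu
rno-miR-181b-5p: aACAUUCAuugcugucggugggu
rno-miR-181c-5p: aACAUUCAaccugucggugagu
rno-miR-181d-5p: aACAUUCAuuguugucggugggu
All 4 share 1 seed, and among 693 mature sequences in the RefSeq table these 4 were the only ones with it. Counted from the 5′ end, rno-miR-181b-5p differs from rno-miR-181a-5p by A9U, C10U and A21G, and rno-miR-181d-5p differs from rno-miR-181b-5p only by C12U. rno-miR-181c-5p equals rno-miR-181a-5p with 1 base left out at position 11. Reads that match several members after trimming or a sequencing error can be split between these rows, and how the authors divided such reads is not given in the sources used here.

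The 3p rows are shown because, unlike the guides, they tell the 2 miR-181a genes apart, and capitals again mark bases 2 to 8.
rno-miR-181a-1-3p: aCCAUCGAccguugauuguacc
rno-miR-181a-2-3p: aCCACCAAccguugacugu
rno-miR-181b-1-3p: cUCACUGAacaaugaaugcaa
rno-miR-181c-3p: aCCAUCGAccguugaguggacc
rno-miR-181a-2-3p (chr3:43025646-43025664) comes only from Mir181a2, whereas rno-miR-181a-1-3p (chr13:52037121-52037142) comes from Mir181a-1. rno-miR-181a-1-3p and rno-miR-181c-3p share a seed, although they come from different chromosomes, and they differ by U16G and U19G.

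Depth was 744564 to 4069284 miRNA reads per cortex library (median 1878601) and 523298 to 4139901 per thalamus library (median 2025250), and the shallowest was the thalamus of sham rat 55. Neuronal and glial marker miRNAs were present in both regions, with group medians of 5101 to 8136 CPM (counts scaled to a common library size) for miR-124-3p. The liver miRNA miR-122-5p stayed at group medians of 2.79 to 6.29 CPM, while muscle-enriched miR-1-3p was not near 0, at 193 to 690.2 CPM. Values are given as CPM after scaling by trimmed mean of M-values (TMM), which corrects for libraries in which a few miRNAs take up many reads.

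rno-miR-181a-5p was the main product of the family. Its CPM was 19629 to 28186 (median 21452) in the cortex of sham rats and 27352 to 42698 (median 31019) in their thalamus. TBI rats had 17940 to 28295 CPM (median 22187) in cortex and 28535 to 44005 CPM (median 33821) in thalamus. By mean CPM this guide ranked 11 of 728 miRNAs in the cortex of both groups, 6 in the thalamus of sham rats and 5 in that of TBI rats. It took a median of 73.4% to 76.3% of all family reads in the 4 groups, and rno-miR-181b-5p took 17.7% to 23.5%. The next guides were far lower, with group medians of 776 to 921 CPM for rno-miR-181d-5p and 132 to 201 CPM for rno-miR-181c-5p. Between them stood rno-miR-181a-1-3p, with group medians of 314 to 521 CPM, so that this 3p strand was more abundant than the guide rno-miR-181c-5p. In cortex of sham rats these neighbors touched, since the lowest rno-miR-181a-1-3p value was 262.6 CPM and the highest rno-miR-181c-5p value 280.5 CPM, and in the other 3 groups they did not overlap. The ranges of rno-miR-181a-5p, rno-miR-181b-5p, rno-miR-181d-5p and rno-miR-181a-1-3p did not overlap in any group. Mature sequences of 19 to 23 bases were compared here as reads, without a correction for length.

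The remaining 3p rows were rare. rno-miR-181c-3p had group medians of 60.5 to 82.7 CPM. rno-miR-181a-2-3p was counted 2 to 18 times in a library of cortex and 3 to 56 times in a library of thalamus, and rno-miR-181b-1-3p 1 to 15 times and 0 to 40 times. rno-miR-181d-3p gave at most 2 reads in a library. rno-miR-181b-2-3p gave no read in any of the 12 cortex libraries, which allows up to 4.03 CPM before TMM scaling in the shallowest of them (3 reads, counting error only), and 0 to 4 reads in thalamus. The excess of guide over 3p strand differed widely between the 3p rows (geometric means of 6 rats). For miR-181c the arms were closest, with group means of 2.28 to 2.50 reads of rno-miR-181c-5p per read of rno-miR-181c-3p. rno-miR-181a-5p, which both miR-181a genes feed, had group means of 61.6 to 68.3 reads per read of rno-miR-181a-1-3p and of 2466 to 5783 per read of rno-miR-181a-2-3p. rno-miR-181b-5p, the only miR-181b guide row beside 3p rows of Mir181b1 and Mir181b2, had group means of 1168 to 2168 reads per read of rno-miR-181b-1-3p.

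**Figure D1:**
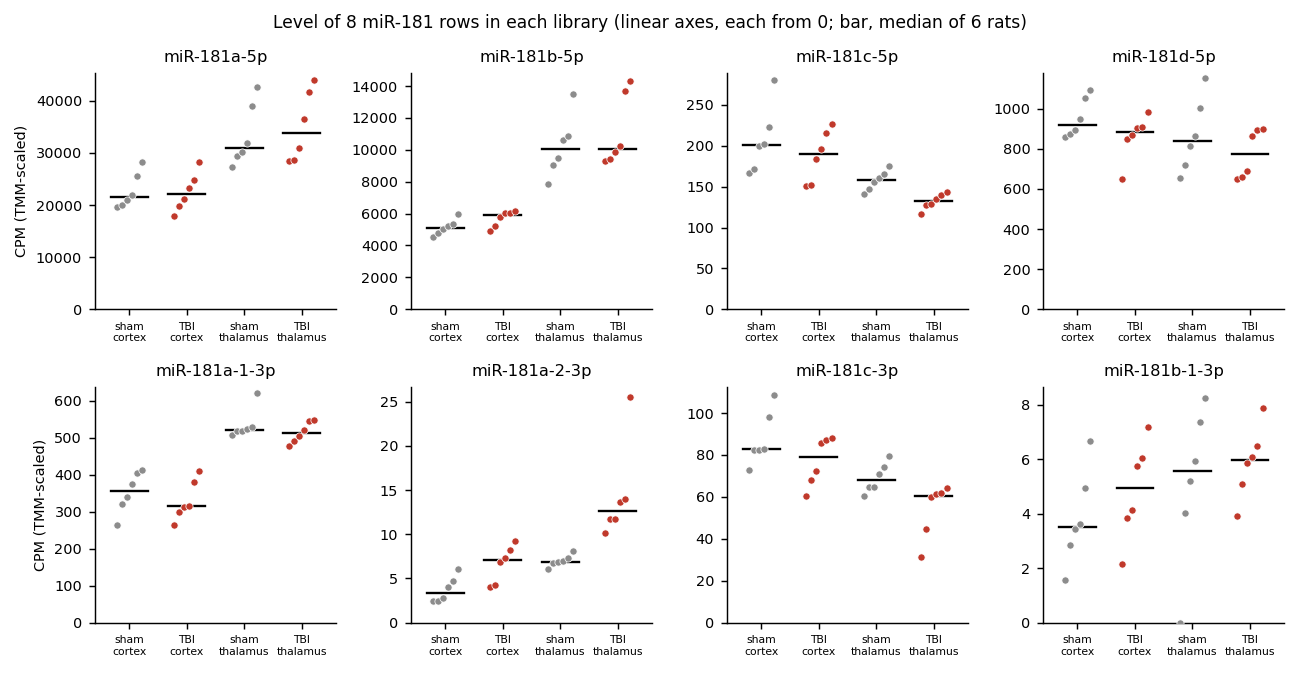
Each panel plots 1 family row, with CPM after TMM scaling on a linear axis from 0 and 1 point per library in the 4 groups (gray, sham; red, TBI; bar, median of 6 rats). The miR-181a and miR-181b guides sit higher in thalamus, with rno-miR-181b-5p between 4532 and 6182 CPM in every cortex library and between 7852 and 14314 CPM in every thalamus library.

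The comparison of regions asked whether the family is set differently in cortex and thalamus. The guides of miR-181a and miR-181b and both miR-181a 3p strands were lower in cortex than in thalamus, the products of miR-181c were higher with TMM scaling (both strands in TBI rats, the guide alone in sham rats), and rno-miR-181d-5p did not pass the test. rno-miR-181b-5p had 4532 to 5953 CPM (median 5105) in sham cortex and 7852 to 13511 (median 10062) in sham thalamus, without overlap and lower in cortex in 6 of 6 rats. Its log2 difference, cortex against thalamus, was -0.99 (SE 0.14; edgeR adjusted p = 5.55e-06), or 0.502 times the level in thalamus. In TBI rats it had 4923 to 6182 CPM (median 5912) in cortex and 9314 to 14314 (median 10038) in thalamus, again without overlap (log2 difference -0.97, SE 0.14, edgeR adjusted p = 8.19e-06). rno-miR-181a-5p was lower in cortex in every rat, by -0.56 (SE 0.15, adjusted p = 0.00561 in edgeR) in sham and -0.64 (SE 0.15, adjusted p = 0.00207 in edgeR) in TBI rats. These fits had no term for the rat. Both guides passed the threshold in each of the 19 other settings tried, among them the rat as a replicate block.

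The 3p rows of the miR-181a genes were lower in cortex as well. rno-miR-181a-1-3p had 263 to 412 CPM in sham cortex and 508 to 620 CPM in sham thalamus, and the groups did not overlap. The log2 difference was -0.60 (SE 0.13, edgeR adjusted p = 0.00111) in sham rats and -0.64 (SE 0.13, edgeR adjusted p = 0.000659) in TBI rats. With scaling to 4 reference miRNAs these became -0.52 and -0.48 and missed the threshold (adjusted p = 0.114 and 0.140 in edgeR). rno-miR-181a-2-3p differed by -0.95 (SE 0.29, edgeR adjusted p = 0.0144) in sham and by -0.99 (SE 0.25, edgeR adjusted p = 0.0041) in TBI rats, on few reads, and in sham the call was lost without rat 32 (-0.81, adjusted p = 0.0733) or rat 38 (-0.86, adjusted p = 0.0641). rno-miR-181b-1-3p pointed the same way, at -0.56 (SE 0.35) and -0.37 (SE 0.34), and did not pass (edgeR adjusted p = 0.248 and 0.473). Neither rno-miR-181a-2-3p nor rno-miR-181b-1-3p had enough reads to be tested in the cortex libraries alone. Both entered the fit of 24 libraries through thalamus, their higher region.

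rno-miR-181c-5p had 166 to 281 CPM (median 201) in sham cortex and 141 to 176 (median 158) in sham thalamus, higher in cortex in 6 of 6 rats although the groups overlapped. In TBI rats it had 150.5 to 226 CPM (median 190.1) in cortex and 116 to 143 (median 132) in thalamus, without overlap. Its log2 difference was 0.51 (SE 0.14, edgeR adjusted p = 0.009) in TBI rats. The call was lost in 6 of the 19 other settings, among them leaving out rat 24, 50, 52 or 63 (0.34 to 0.42). Over these 19 settings the difference was 0.33 to 0.67. In sham rats the difference of 0.39 (SE 0.14, edgeR adjusted p = 0.0423) was less secure, since with the rat as a replicate block it was 0.38 with adjusted p = 0.0572 in edgeR, leaving out 1 rat ended the call for all rats but 22 and 55, and with library size alone in place of TMM the sign turned (-0.031). The opposite strand, rno-miR-181c-3p, was higher in cortex in 12 of 12 rats (6 of 6 per group), by 0.50 (SE 0.17, edgeR adjusted p = 0.0266) in TBI rats and by 0.35 (SE 0.17, edgeR adjusted p = 0.136) in sham rats. The call in TBI rats was lost in 10 of the 19 other settings, among them leaving out rat 22, 24, 45, 50, 52 or 63 (0.28 to 0.49). Over these 19 settings the difference was 0.28 to 0.62. rno-miR-181d-5p differed by 0.14 (SE 0.15) in sham and 0.15 (SE 0.15) in TBI rats, with edgeR adjusted p = 0.533 and 0.505, and both signs turned with library size alone (-0.27 and -0.023).

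In counts, 8 of the 10 rows had enough reads to be tested. In sham rats 5 of the 8 passed an adjusted p of 0.05, against 25.1% of the 407 miRNAs tested, with 4 lower in cortex (12.8% of all) and 1 higher (12.3% of all). In TBI rats 6 of the 8 passed, against 27.3% of all miRNAs, with 4 lower (14.0% of all) and 2 higher (13.3% of all). The median log2 difference of the 8 rows was -0.56 in sham and -0.50 in TBI rats, where the medians of all miRNAs were -0.04 and 0.03. Library size alone moved the median of all miRNAs by -0.42 in sham rats and by -0.18 in TBI rats, and the 4 reference miRNAs moved it by 0.14 in TBI rats.

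**Figure D2:**
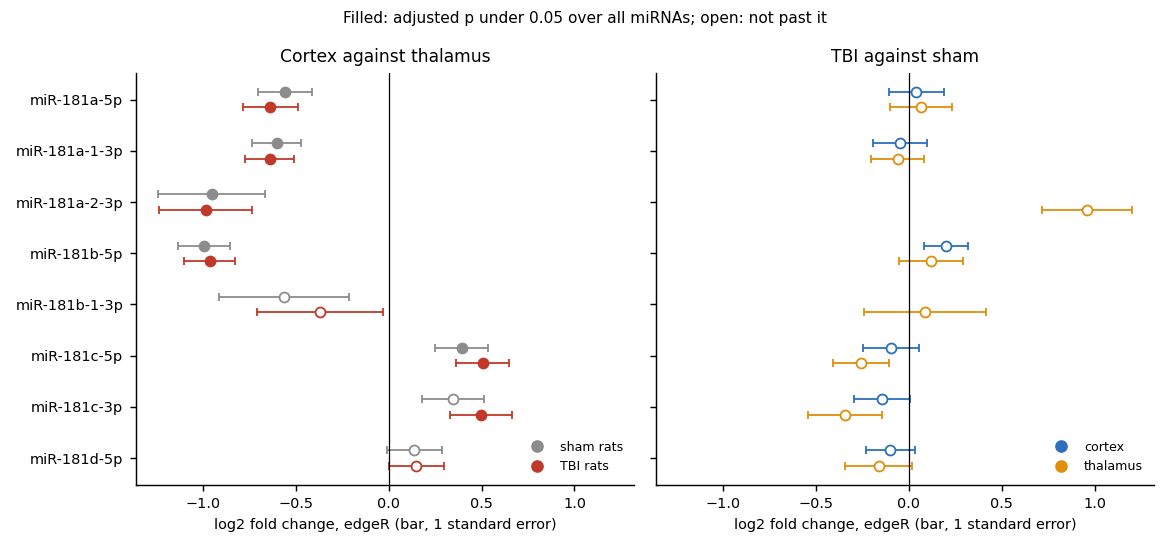
Points give the edgeR log2 difference of 8 family rows with 1 standard error, on the left for cortex against thalamus (gray, sham rats; red, TBI rats) and on the right for TBI against sham (blue, cortex; orange, thalamus), filled where the adjusted p was under 0.05. On the left the miR-181a and miR-181b rows lie below 0 and the miR-181c rows above it with TMM scaling (in sham rats rno-miR-181c-5p falls to -0.031 with library size alone), and on the right no point is filled.

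A ratio of 2 rows within 1 library needs no scaling between libraries, so the balance inside the family was also compared by rat. In sham rats there were 71.2 to 169 reads of rno-miR-181a-5p per read of rno-miR-181c-5p in cortex (median 109.6) and 155 to 276 in thalamus (median 205). In TBI rats the same ratio was 82.9 to 165 in cortex (median 129) and 205 to 341 in thalamus (median 265). The thalamus value was the higher in all 12 rats, with a log2 difference, cortex against thalamus, of -0.93 ± 0.35 (SD, n = 6) in sham and -1.12 ± 0.34 (SD, n = 6) in TBI rats. For rno-miR-181b-5p over rno-miR-181d-5p, guides that differ by a single base, the separation was complete. The ratio was 4.76 to 6.19 in sham cortex and 10.6 to 12.6 in sham thalamus, with a log2 difference of -1.14 ± 0.17 (SD, n = 6). In TBI rats the ratio was 6.06 to 7.56 in cortex and 11.9 to 15.9 in thalamus (log2 difference -1.10 ± 0.23, SD, n = 6). rno-miR-181a-5p over rno-miR-181b-5p went the other way, with group means of 4.39 reads per read in sham cortex against 3.27 in sham thalamus, and 3.92 against 3.15 in TBI rats. The exact sign-flip permutation test over 64 patterns gave p = 0.03125 for each of these 6 differences, the smallest it allows, and over the 16 ratios tested none could then pass adjustment (adjusted p = 0.0833). Without the replicate block, by exact permutation over all divisions of the 12 libraries, the same 6 ratios passed, with adjusted p of 0.00693 to 0.0115. That test treats the 2 regions of a rat as independent, which they are not, so it does not replace the paired test.

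None of the 8 ratios of guide to 3p strand passed between regions, but here even the smallest p of the sign-flip permutation test (0.03125) did not pass adjustment. The unadjusted p of all 8 lay above that value. rno-miR-181c-5p over rno-miR-181c-3p differed by a log2 value of 0.04 ± 0.22 (SD, n = 6) in sham and -0.04 ± 0.41 (SD, n = 6) in TBI rats, and rno-miR-181a-5p over rno-miR-181a-1-3p by 0.07 ± 0.44 and 0.02 ± 0.34 (SD, n = 6 each). The exact permutation p for these 4 was 0.69 or higher. The ratios to the rare strands spread more widely, with -0.75 ± 1.44 and -0.61 ± 0.66 for rno-miR-181b-5p over rno-miR-181b-1-3p and 0.36 ± 0.52 and 0.42 ± 0.90 for rno-miR-181a-5p over rno-miR-181a-2-3p in sham and TBI rats (SD, n = 6 each, exact permutation p of 0.0938 to 0.469). With these SDs moderate differences would be missed.

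**Figure D3:**
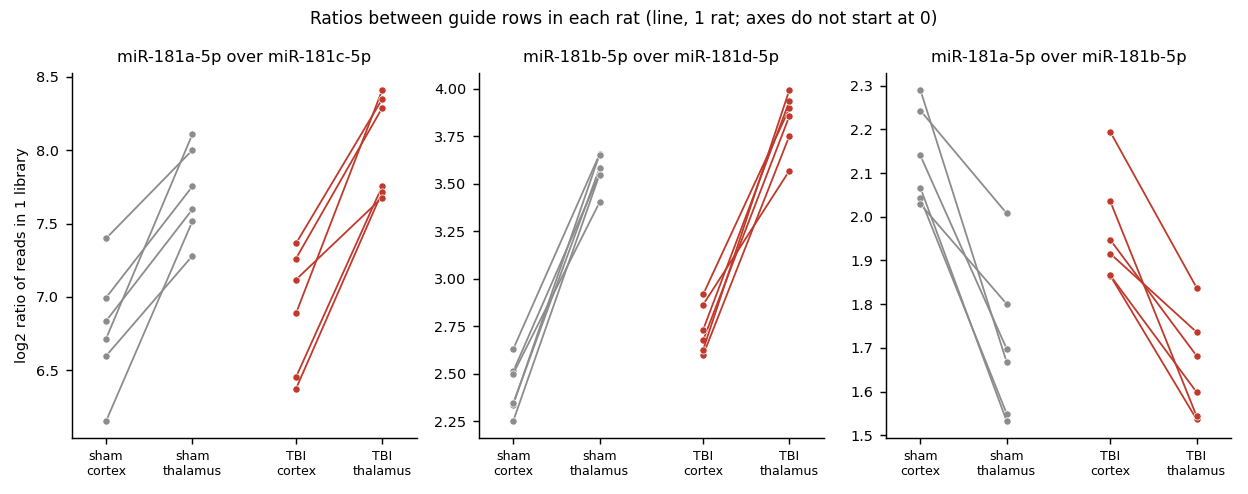
The 3 panels plot the log2 ratio of reads of 2 guides in each library, with a line joining cortex and thalamus of 1 rat (gray, sham; red, TBI); axes do not start at 0. Every line rises toward thalamus for rno-miR-181a-5p over rno-miR-181c-5p and for rno-miR-181b-5p over rno-miR-181d-5p, and every line falls for rno-miR-181a-5p over rno-miR-181b-5p.

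In share of reads, the miR-181c and miR-181d rows together made up 3.62% to 4.90% of family reads in sham cortex (median 4.29%) and 2.24% to 2.52% in sham thalamus (median 2.45%). TBI rats had 3.05% to 4.43% in cortex (median 3.88%) and 1.83% to 2.17% in thalamus (median 2.11%). The ranges of the regions did not overlap in either group. The whole family took a median of 2.36% of all miRNA reads in sham cortex and 4.82% in sham thalamus before TMM scaling, and 2.99% and 4.60% in TBI rats.

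Marker miRNAs of oligodendrocytes and neurons differed between the regions as well. All 4 oligodendrocyte miRNAs tested were lower in cortex in both groups, with a median log2 difference of -1.52 in sham and -1.37 in TBI rats, and their summed level was 4807 to 5738 CPM in sham cortex and 12757 to 21100 CPM in sham thalamus. In TBI rats the sum was 4694 to 6486 CPM in cortex and 13817 to 18154 CPM in thalamus. Of 10 neuron-enriched miRNAs, 4 passed as higher in cortex in sham and 6 in TBI rats, and none passed as lower. Of all miRNAs tested, 12.3% and 13.3% passed as higher. The median log2 difference of the 10 was 0.43 in sham and 0.77 in TBI rats. Below 0 in both groups lay miR-134-5p (-0.41 and -0.49) and miR-129-5p (-0.17 and -0.05). The difference was largest for miR-128-3p in sham rats (1.34, SE 0.23, edgeR adjusted p = 6.09e-05) and for miR-218a-5p in TBI rats (1.34, SE 0.19, edgeR adjusted p = 8.19e-06). None of the 4 leukocyte and microglia miRNAs passed between the regions in either group. Of 6 vessel and red cell miRNAs, 1 passed as higher in cortex in sham rats and none passed in TBI rats. In tissue RNA, fewer cells of a type and less RNA per cell cannot be told apart, and the part of cell composition in the family's regional differences was not tested.

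The comparison of injury asked whether the family was changed 3 months after TBI. In cortex 6 family rows were tested and none passed, where 5.66% of 371 miRNAs did (21 miRNAs, edgeR). No row had an unadjusted p under 0.05, and DESeq2 also called none. rno-miR-181a-5p differed by a log2 value of 0.04 (SE 0.15, edgeR adjusted p = 0.909). rno-miR-181b-5p had 4532 to 5953 CPM in sham and 4923 to 6182 CPM in TBI cortex, which overlapped, with a log2 difference of 0.20 (SE 0.12, edgeR adjusted p = 0.310); with library size alone it became 0.40 and passed (edgeR adjusted p = 0.0458), where the median of all miRNAs moved by 0.20. The other 4 rows lay between -0.15 and -0.05, and the median of the 6 was -0.07 beside 0.05 for all miRNAs.

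In thalamus 8 rows were tested and none passed an adjusted p of 0.05, where 0.513% of 390 miRNAs did (2 miRNAs, miR-146a-5p and miR-155-5p of the inflammation-linked list). DESeq2 called no family row, and 1 row, rno-miR-181a-2-3p, had an unadjusted p under 0.05. The guides rno-miR-181a-5p and rno-miR-181b-5p differed by 0.06 (SE 0.17) and 0.12 (SE 0.17). rno-miR-181c-5p was 116 to 143 CPM in TBI and 141 to 176 CPM in sham thalamus, so the groups barely overlapped, and its log2 difference was -0.26 (SE 0.15, edgeR adjusted p = 0.774). rno-miR-181c-3p differed by -0.35 (SE 0.20, edgeR adjusted p = 0.774) and rno-miR-181d-5p by -0.16 (SE 0.18, edgeR adjusted p = 0.827). These standard errors leave room for changes of moderate size. The difference of the injury effect between the regions, tested as an interaction over 24 libraries, passed for none of the 8 rows and for 0% of 407 miRNAs (edgeR; 16 miRNAs at an unadjusted p under 0.05; DESeq2 also 0), and the family rows lay between -0.08 and 0.19.

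rno-miR-181a-2-3p, the 3p strand of Mir181a2, was counted 3, 11, 12, 17, 22 and 33 times in the thalamus of the 6 sham rats and 13, 23, 25, 31, 37 and 56 times in that of the 6 TBI rats. Scaled, this was 6.01 to 8.15 CPM in sham (median 6.89) and 10.1 to 25.6 CPM in TBI (median 12.7), and every TBI library lay above every sham library. The log2 difference of 0.96 (SE 0.24) had an edgeR adjusted p of 0.175 over 390 miRNAs. Without TBI rat 56, which had the highest value, the difference was 0.88 (edgeR adjusted p = 0.081), and it stayed between 0.85 and 1.11 over all settings tried, where the adjusted p ran from 0.0512 to 0.587. In cortex the row had too few reads for the fit, with 2 to 9 in sham and 3 to 18 in TBI, or 2.40 to 6.02 and 4.00 to 9.19 CPM, which overlapped.

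Measured against the miR-181a guide, the strand was less outnumbered in the thalamus of TBI rats. In thalamus there were 3625 to 5451 reads of rno-miR-181a-5p per read of rno-miR-181a-2-3p in sham rats (median 4667) and 1379 to 3688 in TBI rats (median 2673). The log2 ratio was 12.1 ± 0.25 in sham and 11.3 ± 0.50 in TBI (SD, n = 6 each), a difference of -0.87 (exact permutation test, two-sided, p = 0.00433, adjusted p = 0.0462 over 16 ratios). In cortex the difference was -0.81, with p = 0.0455 and adjusted p = 0.145 (exact permutation test). The ratio of rno-miR-181a-5p to rno-miR-181a-1-3p, the strand of the other miR-181a gene, differed by 0.12 in thalamus and 0.08 in cortex (exact permutation p = 0.355 and 0.745). Set side by side, the 3p strands of the miR-181a genes stood at 64.3 to 92.3 reads of rno-miR-181a-1-3p per read of rno-miR-181a-2-3p in sham thalamus and 19.2 to 53.8 in TBI thalamus, which did not overlap. In cortex the same ratio was 53.2 to 172 in sham and 34.3 to 69.3 in TBI rats, which overlapped, on 2 to 18 reads of rno-miR-181a-2-3p. This last ratio was chosen after the values were seen and was not tested.

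**Figure D4:**
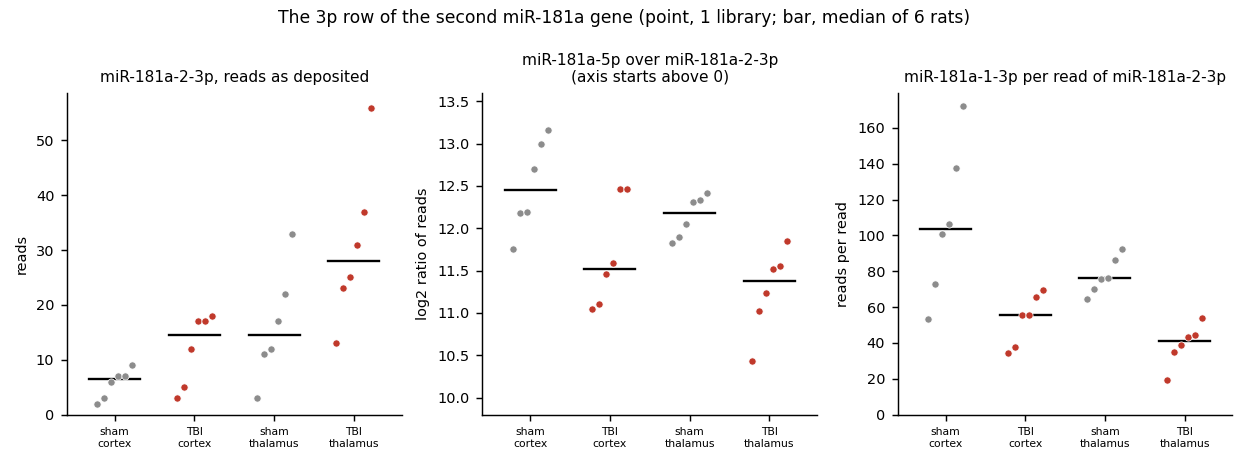
The panels show rno-miR-181a-2-3p in each library (gray, sham; red, TBI; bar, median of 6 rats): reads as deposited, the log2 ratio of rno-miR-181a-5p to it (axis starting above 0), and reads of rno-miR-181a-1-3p per read of it. In thalamus the last ratio is 64.3 to 92.3 in sham and 19.2 to 53.8 in TBI rats. In cortex it is 53.2 to 172 in sham and 34.3 to 69.3 in TBI rats, which overlap.

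The balance between rno-miR-181b-5p and rno-miR-181d-5p differed between TBI and sham in both regions. In cortex the reads of rno-miR-181b-5p per read of rno-miR-181d-5p were 4.76, 5.06, 5.08, 5.66, 5.71 and 6.19 in sham rats and 6.06, 6.18, 6.40, 6.64, 7.28 and 7.56 in TBI rats. Only the highest sham rat, 26, reached into the TBI range. In thalamus they were 10.6, 11.7, 11.7, 12.0, 12.6 and 12.6 in sham rats and 11.9, 13.5, 14.5, 14.9, 15.3 and 15.9 in TBI rats, with TBI rat 56 as the lowest. The log2 ratio was 0.31 higher in TBI cortex (2.74 ± 0.13 against 2.43 ± 0.14, SD, n = 6 each; exact permutation test, two-sided, p = 0.00649) and 0.27 higher in TBI thalamus (3.83 ± 0.15 against 3.57 ± 0.09, SD, n = 6 each; exact permutation p = 0.00866). Both had an adjusted p of 0.0462 over the 16 ratios. The regions share the same rats and are not independent of each other.

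These 3 ratio calls were close to the threshold. Leaving out rat 22, 24, 32, 34, 38, 45, 50, 55 or 63 left no call, leaving out rat 26 or 52 left 1, and without rat 56 there were 4, and the difference of medians in place of means gave none (adjusted p = 0.104 for each). The differences themselves kept their direction and stayed between 0.24 and 0.35 for rno-miR-181b-5p over rno-miR-181d-5p and between -0.99 and -0.70 for rno-miR-181a-5p over rno-miR-181a-2-3p. Neither rno-miR-181b-5p nor rno-miR-181d-5p passed a test on its own level. Of the other ratios, rno-miR-181a-5p over rno-miR-181b-5p differed by -0.16 in cortex (exact permutation p = 0.0433, adjusted p = 0.145), and the remaining 11 had exact permutation p of 0.121 or higher.

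Markers of blood and immune cells were read beside the injury results. Of the 4 leukocyte and microglia miRNAs, all of which the inflammation-linked list holds too, none passed among the 4 tested in cortex and the 3 tested in thalamus (edgeR; miR-223-3p had too few reads there), and their summed level was 788 to 1282 CPM in sham and 861 to 1872 CPM in TBI cortex, and 738 to 1177 CPM in sham and 1031 to 1973 CPM in TBI thalamus. Their median log2 difference was 0.56 in cortex and 0.58 in thalamus, beside 0.05 and -0.03 for all miRNAs. Every tested member of this list lay above 0 in both regions. Most of the summed level was miR-150-5p, and miR-223-3p, a myeloid miRNA, was at 0 to 22.1 CPM in TBI thalamus. Of 12 inflammation-linked miRNAs, 11 of them tested in thalamus, miR-146a-5p (log2 difference 1.04, SE 0.20) and miR-155-5p (1.45, SE 0.26) were higher in TBI thalamus (edgeR adjusted p = 0.0207 for both). In TBI cortex miR-132-3p and miR-146b-5p were lower (edgeR adjusted p = 0.0369 for both), and no member of the list passed as higher. These 2 lay against the median log2 difference of the 12 in cortex, which was 0.46 beside 0.05 for all miRNAs. Of the 10 neuron-enriched miRNAs, only miR-128-3p passed in cortex, lower in TBI by -0.75 (SE 0.16, edgeR adjusted p = 0.0231), and none passed in thalamus. The median log2 difference of the 10 in cortex was -0.15, and miR-124-3p (0.15) and miR-137-3p (0.22) lay above 0. In thalamus their median was -0.33, beside -0.03 for all miRNAs, and all 10 lay below 0 (-0.64 to -0.11). The part of these cells in the ratios of the family was not tested.

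Within groups, rno-miR-181c-5p varied apart from the other guides, its neighbor rno-miR-181d-5p included. The SD of the log2 ratio within groups was 0.13 for rno-miR-181b-5p to rno-miR-181d-5p and 0.14 for rno-miR-181a-5p to both rno-miR-181b-5p and rno-miR-181d-5p. For rno-miR-181c-5p to rno-miR-181d-5p, from the next hairpin on chromosome 19, it was 0.36, and for rno-miR-181c-5p to rno-miR-181a-5p 0.38. rno-miR-181c-5p varied least against rno-miR-181a-1-3p (0.17) and rno-miR-181c-3p (0.23). These values describe 24 libraries that share preparation but differ in depth (523298 to 4139901 miRNA reads), and were not tested.

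Outside the family, the miRNAs whose log2 ratio to each guide had the smallest SD over the 24 libraries, among 212 with a mean of at least 100 CPM, differed from guide to guide. The 24 libraries span both regions, so a like regional difference lowers this SD. For rno-miR-181b-5p the closest was the oligodendrocyte miRNA miR-338-5p (SD 0.25, where the median candidate had 0.71), followed by miR-187-3p and miR-330-5p. Cortex against thalamus in sham rats, the log2 difference was -0.99 for rno-miR-181b-5p and -1.27 for miR-338-5p. rno-miR-181a-5p was closest to miR-325-5p, miR-1839-5p and miR-330-5p (SD 0.27 to 0.29, median 0.61), and miR-330-5p is among the 4 reference miRNAs used for the alternative scaling. rno-miR-181c-5p was closest to miR-488-3p, miR-22-3p and miR-30a-5p (0.21 each, median 0.53), and rno-miR-181d-5p to miR-30a-3p, miR-337-5p and miR-30e-3p (0.19 to 0.24, median 0.53).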

How the data were processed

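Size-selected small RNA libraries were mapped by the authors to the rat genome RGSC3.4 and annotated with miRBase release 20, per the study's methods, and whole read counts per miRNA were deposited for each region. The deposited CPM tables of the authors were not used, and neither were the 444 tRNA rows of the cortex counts. For the 728 miRNAs, quasi-likelihood F tests were run in edgeR 4.0.16 (R 4.3.3) after filterByExpr and TMM, with Benjamini-Hochberg adjustment over all miRNAs tested and a threshold of 0.05, per region for injury and over 24 libraries for regions and the interaction. The main fit over 24 libraries had no term for the rat, although each rat gave both regions. Standard errors were the size of the log2 difference over the root of its F value. Ratios used 0.5 added reads, only where both rows had a median of at least 5 reads, and exact permutation tests (two-sided). Alternatives were DESeq2 (version 1.42.0), other scalings and filters, leaving out each rat, and the rat as a replicate block. The rat numbers pair regions of 1 animal; deviations from group means correlated between a rat's libraries with a median of 0.33 (-0.13 to 0.62, above 0.1 in 8 of 12 rats). Libraries of a group were not duplicates (chi-square per degree of freedom at least 35.0). The scripts were tested on simulated data. Named were all family rows, the leading members of marker lists, and the 3 most alike miRNAs per guide; members and lists were chosen with earlier results of these data known.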

Additional observations from a re-analysis of the deposited data

Results flagged for a closer look

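Of 64 groups of 6 values examined in the family, 2 held a library far from the rest, where about 3.2 would be expected by chance. rno-miR-181a-1-3p was highest in the thalamus of sham rat 55, at 620 CPM with the next library at 529 CPM, and this was the shallowest thalamus library. rno-miR-181a-2-3p was highest in the thalamus of TBI rat 56, at 25.6 CPM with the next at 14.0 CPM.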

How the results depend on the processing

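Of the family rows past the threshold, cortex against thalamus, the 5 in sham rats became 3 with scaling to 4 reference miRNAs and 3 with a mean of at least 50 reads, and 3 to 5 when 1 rat was left out; the 6 in TBI rats became 3 with the reference miRNAs. With library size only, 1 row passed for injury in cortex. The replicate block left 4 rows in sham rats and 6 in TBI rats and changed no call beside that of rno-miR-181c-5p. The 3 ratio calls for injury became 0 with medians and 0 to 4 when 1 rat was left out. Between regions the 0 ratio calls became 6 without the replicate block, in a test that ignores the pairing by rat. Values that turned sign were small and uncalled, except rno-miR-181c-5p in sham rats. With library size only, injury in cortex gave rno-miR-181a-1-3p 0.17, rno-miR-181c-3p 0.067, rno-miR-181c-5p 0.10 and rno-miR-181d-5p 0.093, the region difference in sham rats gave rno-miR-181c-3p -0.10, rno-miR-181c-5p -0.031 and rno-miR-181d-5p -0.27, and in TBI rats rno-miR-181d-5p -0.023. In 1 fit of all 24 libraries rno-miR-181a-5p was -0.0097 for injury in cortex, and with the reference miRNAs rno-miR-181b-1-3p was -0.038 for injury in thalamus. Leaving out 1 rat gave rno-miR-181a-5p -0.12 to 0.10 and rno-miR-181a-1-3p -0.19 to 0.0073 for injury in cortex, rno-miR-181a-1-3p -0.094 to 0.065 and rno-miR-181d-5p -0.23 to 0.0035 for injury in thalamus, and rno-miR-181d-5p -0.034 to 0.19 between regions in TBI rats. The cause of these changes was not tested. rno-miR-181b-2-3p and rno-miR-181d-3p were too shallow for any comparison.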
